A study of Mus musculus with 20 samples.

Results

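The 10 genes described here code for parts of ER-associated degradation (ERAD), the route by which misfolded proteins leave the endoplasmic reticulum (ER) for destruction by the proteasome. They were chosen by name, as the derlins Derl1, Derl2 and Derl3, the members of the HRD1 ubiquitin ligase complex Syvn1, Sel1l, Herpud1 and Os9, and the EDEM mannosidases Edem1, Edem2 and Edem3. All 10 were among the 19368 genes listed for oxygen-induced retinopathy (OIR) and the 19102 listed for the drug experiment, and all 10 passed the filter on low values in both.

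Whole mouse retinas of the C57BL/6J background were profiled by bulk RNA-Seq, as 5 libraries in each of 4 groups. P17 Atf6+/+ OIR mice, labelled WT, and P17 Atf6-/- OIR mice, labelled KO, were both kept in 75% oxygen from P7 to P12 and then for 5 days in room air, a protocol that closes retinal vessels and is followed by abnormal vessel growth. P30 wildtype mice had both eyes injected intravitreally with 1 µL of 10 µM Ceapin-A7, a small molecule that blocks transport of the ATF6 precursor out of the ER, or with saline (labelled PBS), and retinas were taken 24 h later. One comparison asks how these RNAs differ where Atf6 is missing from birth in OIR retinas, and the other how they differ after brief inhibition in retinas without OIR. The drug vehicle was saline with dimethyl sulfoxide, for which the methods give a lower concentration in the Ceapin-A7 solution than in the saline. The Atf6-/- line lacks Atf6 in every tissue, because of a premature stop codon, and its 5 libraries all come from OIR mice. Values are FPKM, fragments scaled for transcript length and for the mapped fragments of the library, so levels can be compared between genes per length. In a whole retina, fewer cells of a type and less RNA per cell cannot be told apart.

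The steps of ERAD have known roles. EDEM proteins trim mannose from the sugar chains of misfolded glycoproteins, OS9 recognises the trimmed chains and passes the protein to SEL1L, and SEL1L holds and stabilises SYVN1 (also called HRD1), the ubiquitin ligase in the ER membrane. Derlins sit in the membrane beside the ligase and take part in moving the protein to the cytosol, and HERPUD1 is an ER-stress-induced membrane protein that joins the ligase complex. ATF6 is an ER membrane protein that is cut in the Golgi under ER stress, and its freed part enters the nucleus and, with NF-Y, acts on ER stress response elements (ERSE) in promoters of chaperone and ERAD genes. XBP1, the factor made by the IRE1 branch, acts on many of the same genes, and photoreceptors, which make large amounts of membrane protein, depend on ER quality control.

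RefSeq promoter windows of 300 bases, 250 before and 50 after the start of a gene on GRCm38.p6, were found for 9 of the 10 genes, with 2 windows for Derl2. Derl1 had none. The full ERSE, CCAAT and CCACG with 9 bases of any kind between them, was searched on both strands and stood in the windows of Derl3 and Syvn1, against 0.119% of all 32851 windows. ERSE-II, ATTGG and CCACG with 1 base between them, stood in the window of Herpud1, against 0.0365% of all windows. The matched letters were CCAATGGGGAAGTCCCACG on the opposite strand of Derl3 (-156 to -138 from the start), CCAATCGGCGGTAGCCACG in Syvn1 (-44 to -26) and ATTGGGCCACG in Herpud1 (-52 to -42). The 250 bases before the start are shown for these 3 genes, since they hold the element through which ATF6 is known to act, with the match in capitals and, in Derl3, read on the opposite strand. The regions are chr10:75893148-75893397, chr19:6046326-6046575 and chr8:94386179-94386428, all on the plus strand.
Derl3: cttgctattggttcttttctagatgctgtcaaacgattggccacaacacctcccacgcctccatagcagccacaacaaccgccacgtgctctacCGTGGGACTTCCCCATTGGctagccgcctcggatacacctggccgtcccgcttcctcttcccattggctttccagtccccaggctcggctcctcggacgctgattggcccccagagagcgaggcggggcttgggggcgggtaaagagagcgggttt
Syvn1: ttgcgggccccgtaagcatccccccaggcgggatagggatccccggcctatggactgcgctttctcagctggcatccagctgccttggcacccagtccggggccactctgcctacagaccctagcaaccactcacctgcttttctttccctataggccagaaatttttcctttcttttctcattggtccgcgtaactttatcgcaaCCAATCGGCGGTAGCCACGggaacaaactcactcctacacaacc
Herpud1: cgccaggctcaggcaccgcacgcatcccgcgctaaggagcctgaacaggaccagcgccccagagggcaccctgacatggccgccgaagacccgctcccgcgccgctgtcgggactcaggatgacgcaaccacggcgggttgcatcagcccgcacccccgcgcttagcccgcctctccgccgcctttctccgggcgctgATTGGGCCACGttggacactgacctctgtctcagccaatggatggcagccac

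Of these 3 genes, Derl3 passed the test in one of the comparisons below, and Syvn1 and Herpud1 passed it in neither. Edem3 and Sel1l, which each passed the test in one of them, held neither full element. Their 250 bases before the start are shown for contrast, with every CCACG and CCAAT of either strand in capitals, from chr1:151755124-151755373 (plus strand) and chr12:91849158-91849407 (minus strand).
Edem3: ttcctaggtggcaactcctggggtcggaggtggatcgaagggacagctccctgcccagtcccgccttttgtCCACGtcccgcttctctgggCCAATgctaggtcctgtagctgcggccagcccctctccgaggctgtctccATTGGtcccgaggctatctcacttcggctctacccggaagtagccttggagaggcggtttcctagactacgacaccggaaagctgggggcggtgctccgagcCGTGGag
Sel1l: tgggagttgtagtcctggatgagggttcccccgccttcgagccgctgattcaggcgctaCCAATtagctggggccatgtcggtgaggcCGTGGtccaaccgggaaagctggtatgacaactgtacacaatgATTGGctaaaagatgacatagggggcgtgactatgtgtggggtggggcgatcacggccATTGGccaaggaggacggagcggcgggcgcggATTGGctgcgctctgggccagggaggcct

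The parts of the ERSE were common. CCACG, its last 5 bases, was found in a window of all 9 genes, against 32.8% of all windows, and CCAAT, its first 5, in a window of 8 of the 9, against 37.4%. These counts overlap those of the full elements, which contain both. They are of genes with the letters in any window, while the shares are per window, and window 1 of Derl2 held neither part. The window of Edem2 held 47.3% GC and the others 55.7% to 76%, against a median of 52.7% over all windows. TGACGTG, the core of the site bound by ATF6 itself, was found in none of the 9 and in 2.01% of all windows, and TGACGTGG, the longer core that contains it, likewise in none and in 0.676%. A match describes letters and does not show that a factor was bound. Of the 49 genes with an ERSE or ERSE-II in a window, a list drawn after member values had been seen, 31 were tested in OIR, of which 3 were higher and 1, Derl3, was lower, beside 6.92% and 5.83% of all genes tested. In the drug experiment 30 were tested, with 0 higher and 5 lower, none of them an ERAD gene described here, beside 5.04% and 5.32% of all genes.

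Some libraries stood apart. PBS replicates 4 and 5 had 28.6 and 20.7 FPKM of the stress-induced factor Atf3 (4.86 to 6.40 in the other 3) and 138 and 162 FPKM of the ER chaperone Hspa5 (106 to 110). Their rod markers summed to 14588 and 13671 FPKM (18512 to 20620) and Muller glia markers to 1243 and 1440 FPKM (1578 to 2257). Drug results of the ERAD genes are therefore given with and without these libraries. In OIR, the log2 values of a library tended up or down with transcript GC content. The Spearman correlation of its deviations with GC was 0.312 to 0.382 in Atf6+/+ replicates 1, 2, 3 and 5 and -0.149 to -0.545 in Atf6-/- replicates 1 to 4, whereas Atf6+/+ replicate 4 (-0.309) and Atf6-/- replicate 5 (0.407) went the other way. Across genes, the OIR fold change had a Spearman correlation of -0.464 with GC, against -0.0984 after Ceapin-A7. Markers of lens fibres summed to 9.88 to 597 FPKM in Atf6+/+ and 6.23 to 10.2 FPKM in Atf6-/- retinas (10 of 12 tested lower), and to 9 to 5369 and 95.6 to 9646 FPKM in PBS and Ceapin-A7 retinas. Markers of the pigment epithelium summed to 200 to 335 and 269 to 522 FPKM in the OIR groups (5 of 11 higher). Endothelial markers summed to 112 to 179 FPKM in Atf6+/+ and 106 to 153 FPKM in Atf6-/- retinas (2 of 9 lower), and cone markers to 830 to 1179 FPKM in PBS and 1134 to 1265 FPKM in Ceapin-A7 retinas (5 of 8 higher). The part of these cells in the ERAD values was not tested. All markers of rods, cones, bipolar cells, amacrine and ganglion cells and Muller glia exceeded 1 FPKM in every library. Atf6 RNA was 14.9 ± 0.618 FPKM (SD, n = 5) in Atf6+/+ and 15.2 ± 1.51 FPKM in Atf6-/- retinas (log2 fold change 0.03 ± 0.07 SE, exact permutation p = 0.595), and since the allele is a stop codon, the RNA level does not check the genotype.

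The 10 genes spanned a wide range of levels. In Atf6+/+ OIR retinas, the lectin gene Os9 was the most abundant at 50.3 ± 2.73 FPKM (SD, n = 5), and Derl3 the least at 1.86 ± 0.221 FPKM. From the top, the order was Os9, Edem2, Herpud1, Sel1l, Syvn1, Derl1, Edem3, Derl2, Edem1 and Derl3. Neighbours in that order whose 5 libraries overlapped were Edem2 and Herpud1, Sel1l and Syvn1, and Syvn1 and Derl1, and all other neighbours were apart. The same order held in Atf6-/- OIR retinas, with the same neighbours overlapping. In PBS retinas the order was Herpud1 at 44.3 ± 6.48 FPKM, Os9, Derl1, Edem2, Sel1l, Syvn1, Edem3, Derl2, Edem1 and Derl3 at 0.952 ± 0.303 FPKM. Derl1, Edem2 and Sel1l each overlapped with the next in that order, and the other neighbours did not. After Ceapin-A7, Edem2 and Derl1 exchanged places, both pairs of Edem2 with Derl1 and Derl1 with Sel1l overlapped, and all other neighbours were apart.

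Between the control groups of the experiments, 7 of the 10 genes had no overlap of libraries, as had 40.4% of the 15655 genes whose mean FPKM over these 10 libraries was above the filter (19.9% with PBS above and 20.5% with PBS below). The levels of PBS over Atf6+/+ OIR retinas were 1.497-fold for Derl2, 1.47-fold for Derl1, 1.40-fold for Edem3 and 1.33-fold for Edem1, with every PBS library above every Atf6+/+ OIR library. They were 0.513-fold for Derl3, 0.660-fold for Os9 and 0.697-fold for Edem2, with every PBS library below. Herpud1 (1.27-fold), Sel1l (1.04-fold) and Syvn1 (0.933-fold) overlapped. Age, oxygen exposure and injection all differed between these groups and cannot be told apart, and their tables were deposited separately, so no test was made.

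**Figure D1:**
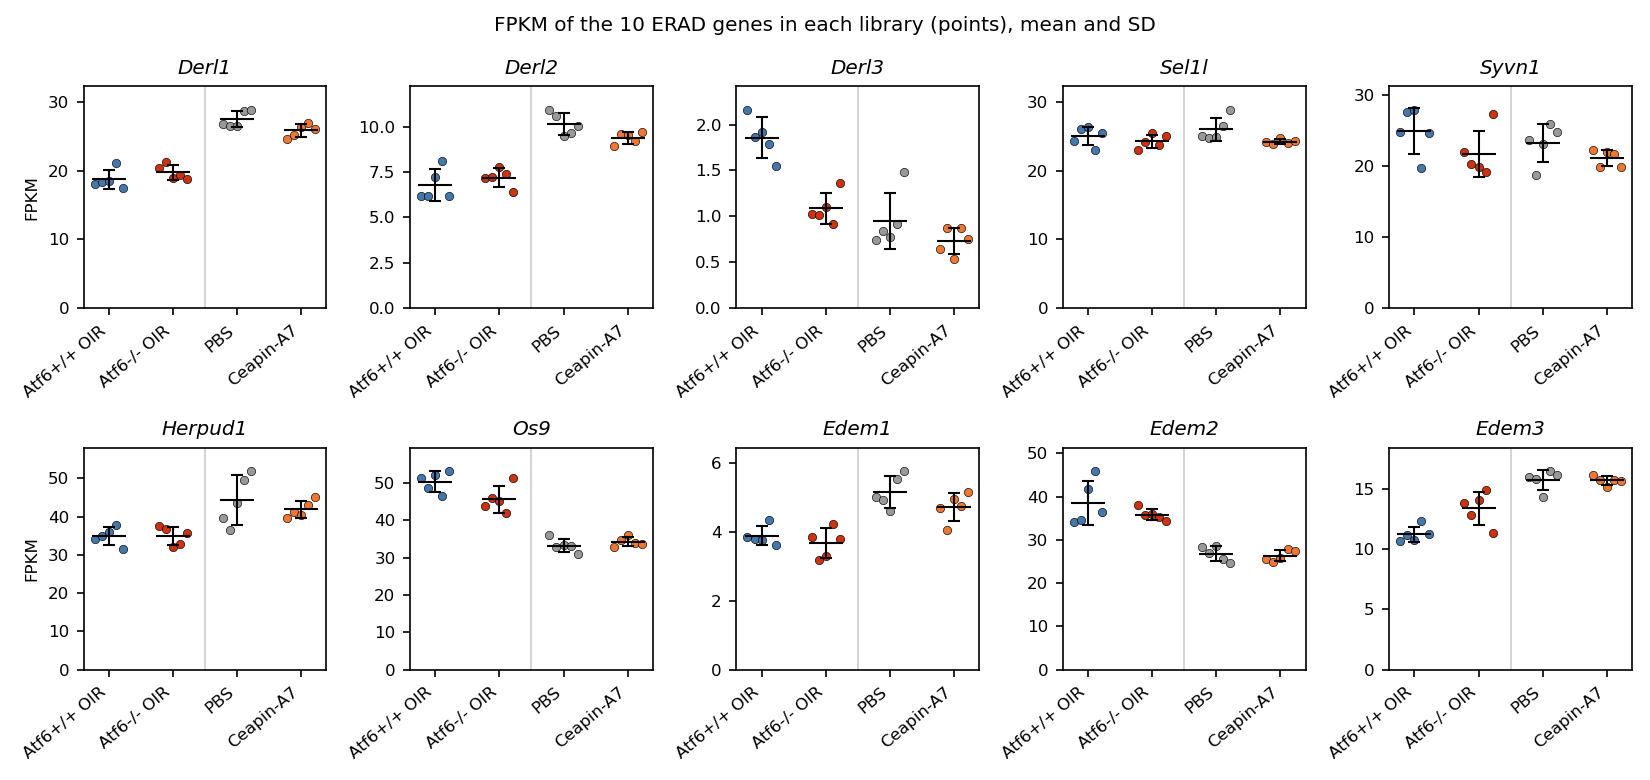
FPKM (vertical axes, from 0) of the 10 ERAD genes in the 5 libraries (points) of each of the 4 groups, with black lines for the mean and SD. Derl3 is the gene whose Atf6-/- OIR libraries (0.92 to 1.36 FPKM) lie wholly below the Atf6+/+ OIR libraries (1.55 to 2.16 FPKM).

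In OIR retinas without Atf6, Derl3 RNA fell and Edem3 RNA rose, and the other 8 ERAD genes did not pass the test. Of 15704 genes tested, 12.7% were called at an unadjusted p of 0.05 or less, the threshold of the study, 6.92% higher and 5.83% lower. Of all calls 54.3% were higher, against 30.5% with FPKM left as deposited. Beside that background, 1 of the 10 ERAD genes was called higher and 1 lower, in both scalings. The median log2 fold change of the 10 was -0.05, beside 0.0028 over all genes tested. At an adjusted p under 0.05, 0.0318% of all genes and 0 of the 10 were called. Below, "called" means an unadjusted limma p of 0.05 or less, and for each gene the exact two-sided permutation p over the libraries is given. How many of all genes had no overlap between the groups of an experiment, or the smallest exact permutation p, was not counted.

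Derl3, the derlin known mainly from secretory cells, was 2.16, 1.86, 1.92, 1.79 and 1.55 FPKM in Atf6+/+ replicates 1 to 5 and 1.03, 1.02, 1.10, 0.92 and 1.36 FPKM in Atf6-/- replicates 1 to 5. All 5 Atf6-/- libraries lay below the lowest Atf6+/+ library. The means of 1.86 ± 0.221 and 1.09 ± 0.166 FPKM (SD, n = 5) gave a log2 fold change of -0.71 ± 0.13 (SE, 95% interval -0.996 to -0.421), or 0.612-fold. The unadjusted limma p was 1.65e-04, the adjusted p 0.162 and the exact permutation p 0.00794, the smallest that 5 against 5 libraries can give. Derl3 remained called in all 22 alternative settings, with log2 fold changes from -0.80 to -0.44 and p from 2.29e-05 to 0.00121. Its transcript had the highest GC content of the 10 genes, 59.4%, and after removal of each library's GC trend the log2 fold change was -0.58, still called. The 2 libraries whose GC trend ran against their group, Atf6+/+ replicate 4 and Atf6-/- replicate 5, had 1.79 and 1.36 FPKM, and without Atf6-/- replicate 5 the fold change was -0.80, the adjusted p then being under 0.05. Lens fibre markers summed to 18.6, 151, 9.88, 31.1 and 597 FPKM in Atf6+/+ replicates 1 to 5, and to 6.23 to 10.2 FPKM in Atf6-/- retinas. Of 9 plasma and B cell markers 7 were listed and 5 tested, and 0 were called. Nearly all of their summed level, 17.8 to 20.02 FPKM in Atf6+/+ and 16.5 to 20.2 FPKM in Atf6-/- retinas, came from Jchain and Prdm1, while the defining gene Mzb1 was at 0.18 to 0.43 and 0.24 to 0.52 FPKM and Cd79a at 0.16 to 0.59 and 0.16 to 0.42 FPKM. The part of lens cells or of plasma and B cells in the Derl3 values was not tested.

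The other derlins did not pass the test. Derl1, which is expressed in most tissues, ranged from 17.5 to 21.1 FPKM in Atf6+/+ and 18.8 to 21.3 FPKM in Atf6-/- retinas, with a log2 fold change of 0.10 ± 0.06 (SE, exact permutation p = 0.0635). The 5 Atf6-/- libraries were all above the Atf6+/+ mean, but the groups overlapped. Derl2 ranged from 6.16 to 8.11 and from 6.41 to 7.78 FPKM, with a log2 fold change of 0.11 ± 0.08 (exact permutation p = 0.151). Both genes are called higher when Atf6+/+ replicate 4 is left out, at 0.13 for Derl1 and 0.16 for Derl2. Without that library 3763 of all 15702 genes were called, against 2002 of 15704 with all libraries. In that library Derl1 (21.1 FPKM) and Derl2 (8.11 FPKM) were at their highest among Atf6+/+ retinas.

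In the HRD1 complex, no gene was called in OIR. Syvn1, the ligase, was 24.79, 27.66, 27.95, 19.77 and 24.66 FPKM in Atf6+/+ and 21.95, 20.32, 19.85, 19.15 and 27.29 FPKM in Atf6-/- retinas. Atf6+/+ replicate 4 was low and Atf6-/- replicate 5 high, the same 2 libraries whose GC trend ran against their group, and Syvn1 transcripts hold 57.0% GC. Its log2 fold change was -0.18 ± 0.13 (SE, exact permutation p = 0.238) and -0.09 after the GC correction. It was -0.28 without Atf6+/+ replicate 4 and -0.29 without Atf6-/- replicate 5, both of which were called. Over all genes, 3763 of 15702 and 4014 of 15718 were then called, against 2002 of 15704 with all libraries. Os9, which hands trimmed glycoproteins to the complex and whose transcripts hold 56.9% GC, was likewise lowest of its Atf6+/+ group in replicate 4 and highest of its Atf6-/- group in replicate 5. It ranged from 46.5 to 53.1 and from 41.9 to 51.3 FPKM, with a log2 fold change of -0.13 ± 0.08 (exact permutation p = 0.159) and -0.03 after the GC correction. It too was called without either library, at -0.17 without Atf6+/+ replicate 4 and -0.19 without Atf6-/- replicate 5. Sel1l, the scaffold of the ligase, ranged from 23.1 to 26.3 and from 22.9 to 25.4 FPKM, with a log2 fold change of -0.03 ± 0.06 (exact permutation p = 0.611). Herpud1, which carries the ERSE-II shown above, ranged from 31.4 to 37.8 and from 32.1 to 37.4 FPKM, with a log2 fold change of 0.02 ± 0.07 (exact permutation p = 0.706, 95% interval -0.12 to 0.17), a value that changed sign in 5 of 22 alternative settings.

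Among the EDEM genes, only Edem3 was called. Edem3 was 10.7, 11.2, 10.8, 12.3 and 11.2 FPKM in Atf6+/+ and 13.8, 12.8, 14.1, 14.9 and 11.4 FPKM in Atf6-/- retinas. In all, 4 of the 5 Atf6-/- libraries exceeded every Atf6+/+ library as deposited, and all 5 did after rescaling. The means of 11.2 ± 0.636 and 13.4 ± 1.36 FPKM (SD, n = 5) gave a log2 fold change of 0.27 ± 0.07 (SE, 95% interval 0.11 to 0.42), or 1.202-fold. The unadjusted limma p was 0.00239, the adjusted p 0.357 and the exact permutation p 0.00794. Edem3 was called in all 22 alternative settings, at 0.22 to 0.31, among them the GC correction (0.22). Edem1 ranged from 3.61 to 4.34 and from 3.18 to 4.23 FPKM, with a log2 fold change of -0.07 ± 0.10 (exact permutation p = 0.476). Edem2 ranged from 34.1 to 45.9 and from 34.4 to 38.0 FPKM, with a log2 fold change of -0.08 ± 0.07 (exact permutation p = 0.341), and its 2 highest libraries were Atf6+/+ replicates 3 and 4.

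**Figure D2:**
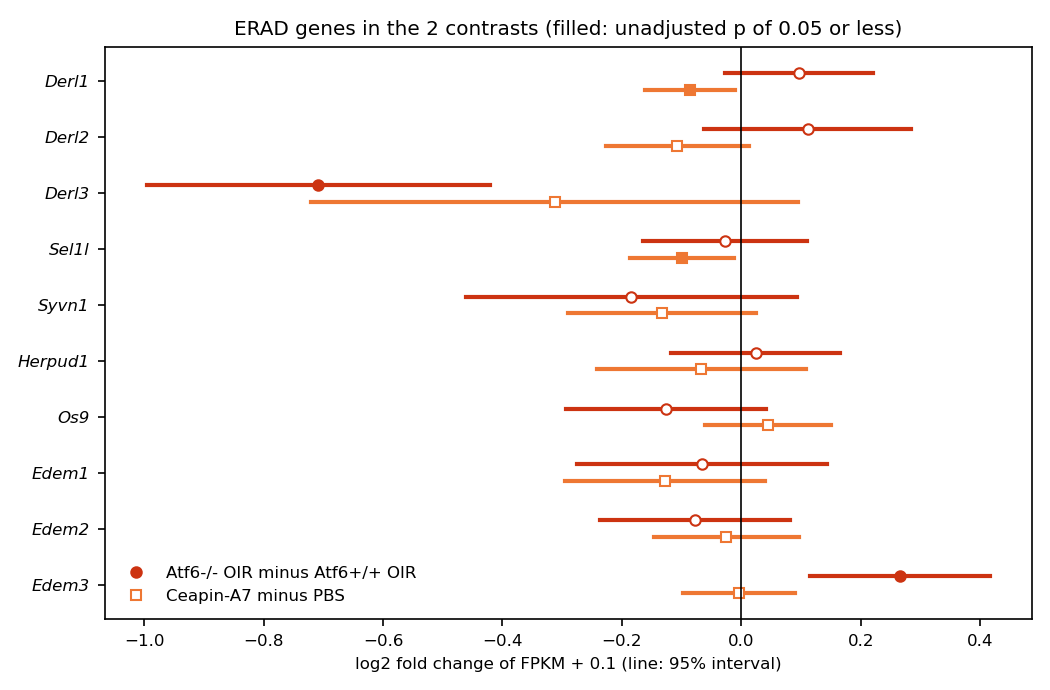
Log2 fold change of FPKM + 0.1 (horizontal axis) with 95% intervals (lines) for each ERAD gene, as Atf6-/- OIR minus Atf6+/+ OIR (circles) and Ceapin-A7 minus PBS (squares), filled where the unadjusted p was 0.05 or less. In OIR, Derl3 lies at -0.71 and Edem3 at 0.27, and after Ceapin-A7 only Derl1 (-0.09) and Sel1l (-0.10) are filled.

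After Ceapin-A7, the log2 fold changes of 9 of the 10 ERAD genes were negative, at -0.31 for Derl3, which was not called, and between -0.13 and 0.05 for the other 9 genes. Of 15408 genes tested, 10.4% were called, 5.04% higher and 5.32% lower, and 48.6% of the calls were higher, against 26.8% when libraries were scaled to the same sum. Beside that, of the 10 ERAD genes, 0 were higher and 2, Derl1 and Sel1l, were lower. Their median log2 fold change was -0.09, beside 7.3e-04 over all genes tested. No gene of the table reached an adjusted limma p under 0.05, while 1596 had an unadjusted p of 0.05 or less and 1 gene reached the adjusted level when all 20 libraries were fitted together.

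Sel1l was 25.0, 24.8, 24.9, 26.4 and 28.8 FPKM in PBS and 24.2, 23.9, 24.7, 23.9 and 24.3 FPKM in Ceapin-A7 retinas. Every treated library lay below the lowest PBS library, and PBS replicates 4 and 5 were the highest. The log2 fold change was -0.10 ± 0.04 (SE, 95% interval -0.19 to -0.01), with a limma p of 0.0296, an adjusted p of 0.472 and an exact permutation p of 0.00794. Without both PBS replicates 4 and 5 it was -0.06 and no longer called. The call was also lost without PBS replicate 5 alone (-0.07) and without Ceapin-A7 replicate 2, 4 or 5 (-0.10, -0.09 and -0.10), and, at -0.10 each, as deposited, in the fit of all 20 libraries and with the replicate number as a block.

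Derl1 was 26.8, 26.5, 26.5, 28.6 and 28.8 FPKM in PBS and 24.6, 25.2, 26.3, 26.9 and 26.1 FPKM in Ceapin-A7 retinas. The groups overlapped as deposited and were apart after rescaling. The log2 fold change was -0.09 ± 0.03 (SE, 95% interval -0.16 to -0.01), with a limma p of 0.0279, an adjusted p of 0.472 and an exact permutation p of 0.00794. It was -0.06 without PBS replicates 4 and 5, and not called. The call was also lost without PBS replicate 4 or 5 alone (-0.08 for each) and without Ceapin-A7 replicate 1 or 2 (-0.07 and -0.08), and, at -0.09 each, in the same 3 settings as that of Sel1l. The other 2 derlins were not called. Derl2 had a log2 fold change of -0.11 ± 0.05 (SE, exact permutation p = 0.0714), with 9.47 to 10.9 FPKM in PBS and 8.91 to 9.70 FPKM in Ceapin-A7 retinas, and was called without PBS replicate 4 (-0.13), when scaled to the same sum (-0.15) and after the GC correction (-0.12). Derl3 was 0.74, 0.84, 0.78, 0.92 and 1.48 FPKM in PBS and 0.64, 0.87, 0.54, 0.87 and 0.75 FPKM in Ceapin-A7 retinas. The groups overlapped, and only PBS replicate 5 stood clear of the treated range by more than 0.1 FPKM. Its log2 fold change was -0.31 ± 0.19 (SE, 95% interval -0.72 to 0.10, exact permutation p = 0.151), and it was -0.16 without PBS replicate 5 and -0.12 without PBS replicates 4 and 5.

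Of the remaining genes, Syvn1 had a log2 fold change of -0.13 ± 0.07 (SE) and Edem1 of -0.13 ± 0.08, with an exact permutation p of 0.135 for each, and in both all 5 treated libraries lay below the PBS mean. Without PBS replicate 2, which held the lowest Syvn1 of all libraries of that experiment (18.8 FPKM), Syvn1 was called at -0.20. Over all genes, 2532 were then called, against 1596 with all libraries. Without PBS replicates 4 and 5, Syvn1 and Edem1 were each at -0.06 and not called. Herpud1 ranged from 36.5 to 51.9 FPKM in PBS and 39.7 to 45.2 FPKM in Ceapin-A7 retinas (-0.07 ± 0.08, exact permutation p = 0.452). The 2 highest Herpud1 values, 49.7 and 51.9 FPKM, belonged to PBS replicates 4 and 5, and without them the log2 fold change was 0.06. Edem2 (-0.03 ± 0.06), Edem3 (-0.0040 ± 0.04) and Os9 (0.05 ± 0.05) were not called, with exact permutation p of 0.675, 0.921 and 0.413. For Edem3 the 95% interval ran from -0.10 to 0.09, and the sign changed in 7 of 23 alternative settings, quantile normalization among them. When PBS replicates 4 and 5 were both left out, the 2 genes called lower were Derl2 (-0.15) and Edem2 (-0.11) in place of Derl1 and Sel1l, and the median of the 10 was -0.06. In that fit 770 of all 15378 genes were called, 402 of them higher, against 1596 of 15408 with all libraries.

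The difference of the contrasts, Atf6-/- minus Atf6+/+ in OIR less Ceapin-A7 minus PBS, was tested over all 20 libraries. Of 15628 genes, 9.2% were called, 5.4% with a higher and 3.79% with a lower value in the OIR contrast, and 0.032% had an adjusted p under 0.05. Of the calls 58.7% were higher, against 39.8% as deposited. Among the ERAD genes 3 were called, all higher in the OIR contrast and none at the adjusted level. Edem3 differed by 0.27 ± 0.08 on the log2 scale (SE, adjusted p = 0.394), Derl1 by 0.18 ± 0.06 (adjusted p = 0.447) and Derl2 by 0.22 ± 0.10 (adjusted p = 0.519). Derl3 differed by -0.39 ± 0.23 (adjusted p = 0.603, 95% interval -0.87 to 0.08), so that a larger fall in OIR than after Ceapin-A7 was not shown with all libraries. Without PBS replicates 4 and 5 it differed by -0.59, and was called. It was also called without PBS replicate 5 alone (-0.55), Atf6-/- replicate 5 (-0.48) or Ceapin-A7 replicate 3 (-0.49). The call of Derl2 was lost on leaving out any of 9 single libraries, at 0.19 to 0.21, namely Atf6+/+ replicates 1, 2 and 5, Atf6-/- replicates 3 and 4, PBS replicates 1 and 2 and Ceapin-A7 replicates 1 and 4. It was also lost as deposited (0.20) and after the GC correction (0.16), which moved the OIR fold change of Derl2 from 0.11 to 0.046. Os9 differed by -0.17 ± 0.09 (adjusted p = 0.566) and was called without Atf6+/+ replicate 4 (-0.21), Atf6-/- replicate 5 (-0.23) or PBS replicate 1 (-0.20). Without Atf6+/+ replicate 4 or Atf6-/- replicate 5, 2389 and 2614 genes were called in the difference, against 1437 with all libraries. With all libraries, Os9 and the other 5 genes were not called.

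**Figure D3:**
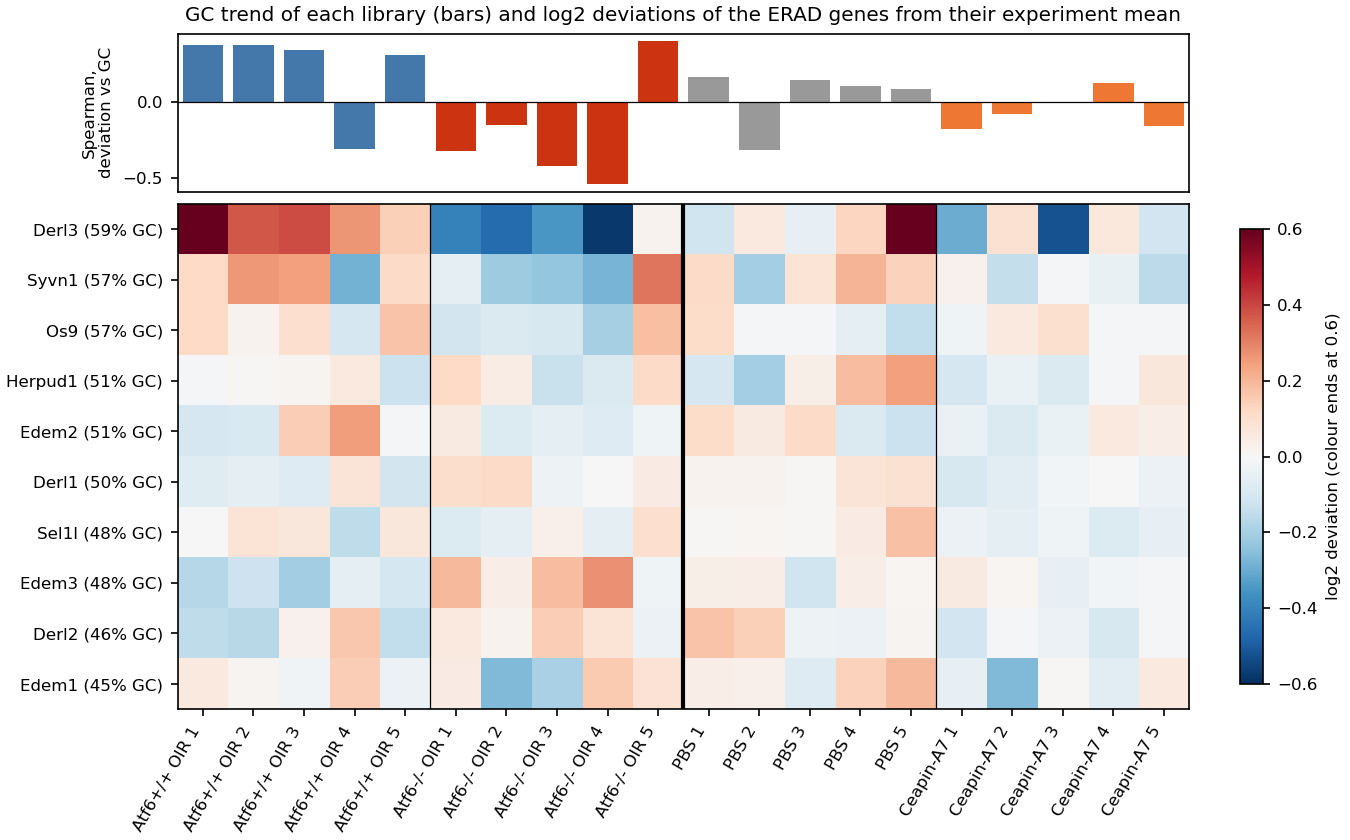
Top, Spearman correlation of each library's log2 deviations with transcript GC content (bars, coloured by group). Bottom, log2 deviation of each ERAD gene (rows, highest GC first) from its mean over the 10 libraries of its experiment, in each library (columns), with colours ending at 0.6 either way. Derl3 is above its mean in all 5 Atf6+/+ OIR libraries and, by 0.023, in Atf6-/- OIR replicate 5. Syvn1 is lowest of the Atf6+/+ libraries in replicate 4, whose bar is negative. It is highest of the Atf6-/- libraries in replicate 5, whose bar is positive.

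The ERAD genes did not vary as a block among libraries of a group. Over the 20 libraries, Pearson correlations of log2 deviations from group means were 0.67 for Sel1l with its partner Syvn1, 0.66 for Derl2 with Edem2, 0.62 for Derl1 with Herpud1 and 0.57 for Derl3 with Herpud1. They were -0.68 for Edem3 with Os9 and for Derl2 with Syvn1, and -0.59 for Edem3 with Syvn1. Some differed between the experiments. Over the OIR libraries and the drug libraries, Sel1l with Syvn1 was 0.79 and 0.33, and Derl2 with Edem2 0.83 and 0.31. Edem3 was -0.83 and -0.24 with Os9, and -0.73 and -0.11 with Syvn1. Derl2 with Syvn1 was close in both, at -0.68 and -0.69. Herpud1 was 0.75 and 0.64 with Derl1, and 0.42 and 0.64 with Derl3. Os9 with Syvn1 was 0.82 over the 10 OIR libraries and -0.20 over the other 10, and Derl1 with Sel1l was -0.76 and 0.50. These values are descriptions, and the OIR libraries also differed in the GC trend given above.

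**Figure D4:**
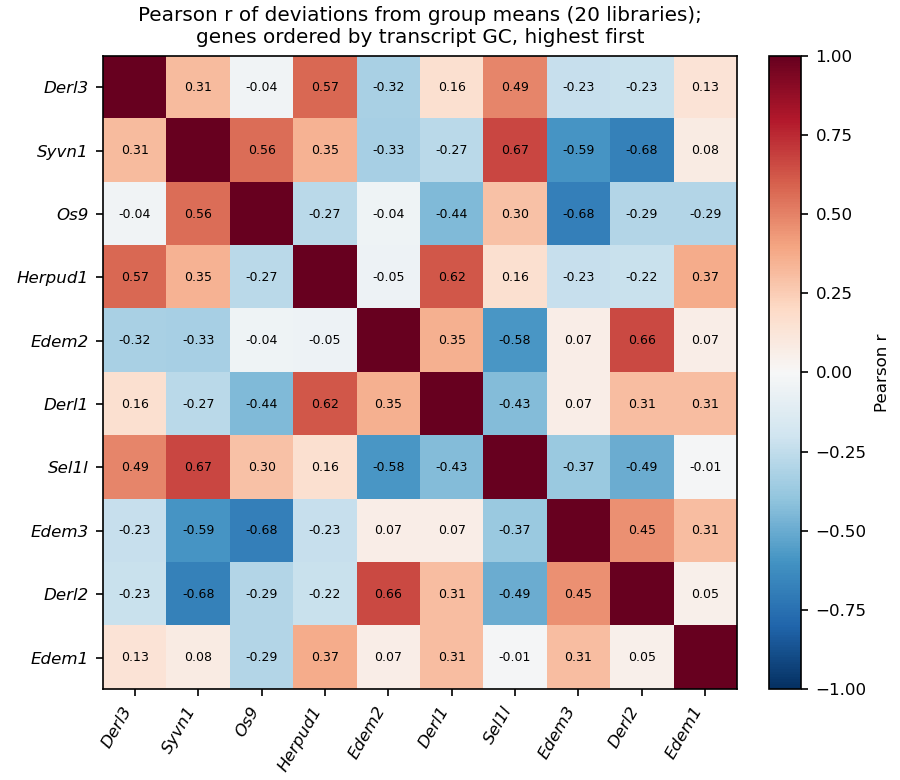
Pearson r of log2 deviations from group means over the 20 libraries, for each pair of ERAD genes (rows and columns, ordered by transcript GC content, highest first). The highest value is 0.67 for Sel1l with Syvn1, and the lowest are -0.68 for Edem3 with Os9 and for Derl2 with Syvn1.

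Across 12996 genes with a mean of at least 1 FPKM, the genes that varied most like Derl3 over the 20 libraries were Ppp1r12c (Pearson r = 0.914), Nefh (0.871) and Car11 (0.826). For Syvn1 they were E2f4 (0.969), Zdhhc18 (0.953) and Sufu (0.946), and for Sel1l Hnrnpul2 (0.914), Dscam (0.913) and Rabl6 (0.898). Herpud1 was nearest to Banp (0.843), Plk3 (0.832) and Bop1 (0.828), and Os9 to Tulp1 (0.900), Psap (0.897) and Spint2 (0.896). Edem3 was nearest to Acvr2a (0.932), Lmbrd2 (0.909) and Zfp266 (0.893), Edem2 to Taldo1 (0.882), Pigf (0.864) and Wdr66 (0.854), and Edem1 to Rbms3 (0.808), Upp2 (0.774) and Crebl2 (0.761). Derl1 was nearest to Saraf (0.879), Slc25a20 (0.812) and Gpx1 (0.808), and Derl2 to 1810030O07Rik (0.833), Tor1b (0.823) and Pyroxd1 (0.819). None of the 10 ERAD genes, nor of the 54 others listed below, was among these 30, but both lists are small beside the 12996 genes searched. The values are the highest of many and are descriptions, and the GC trend of the OIR libraries enters them too.

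Other ERAD genes were read from a list of 56 names, of which 54 were listed and tested. In OIR, 8 of the 54 were higher and 3 lower, with a median log2 fold change of 0.03, beside 6.92% and 5.83% of all genes. The 8 became 5 with FPKM as deposited or scaled to the same sum, 4 after the GC correction and 17 with array weights. Of all 15704 genes, 1087 were higher in the main fit. That number was 582 as deposited, 570 at the same sum, 911 after the GC correction and 2737 with array weights. The ubiquitin-chain elongating ligase Ube4a rose by 0.28 ± 0.07 (SE), the ER ubiquitin-conjugating enzyme Ube2j1, a partner of SYVN1, by 0.19 ± 0.06, the ligase Marchf6 by 0.18 ± 0.06 and the ER membrane co-chaperone Dnajb14 by 0.25 ± 0.09, on the log2 scale with adjusted p from 0.357 to 0.362. Sdf2l1, an ER co-chaperone induced by ER stress, went from 5.63 ± 1.23 to 3.98 ± 0.699 FPKM (SD, n = 5, log2 fold change -0.46, adjusted p = 0.362). After GC correction 4 of the 54 were higher. After Ceapin-A7, 1 was higher, Bcap31 (0.15 ± 0.06 SE, adjusted p = 0.474), a chaperone-like membrane protein, and 1 lower, the HRD1-associated Tmub1 (-0.18 ± 0.05, adjusted p = 0.472), beside 5.04% and 5.32% of all genes. No adjusted p on the list was under 0.05 in either experiment.

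Further lists place the ERAD genes beside other targets of the unfolded protein response. Of 12 ATF6 targets outside ERAD, mainly chaperones and folding enzymes, 0 were called in OIR, beside 12.7% of all genes, and 9 of 12 were negative with a median log2 fold change of -0.15. That count depended on the settings. Of the 12, 3 were lower as deposited or after the GC correction, and 5 when scaled to the same sum or by quantiles. With array weights 4 were lower, and with a mean FPKM above 1, 2 were. Genes called in either direction then numbered 1906 as deposited, 1676 after the GC correction, 1840 at the same sum and 2028 by quantiles. They numbered 5750 with array weights and 1716 of 13060 with a mean FPKM above 1, against 2002 in the main fit. After Ceapin-A7 all 12 were negative, with a median of -0.07. There 1 was called, the disulfide isomerase Pdia6 (-0.13 ± 0.05 SE, adjusted p = 0.472), beside 10.4% of all genes. Of 12 PERK and ATF4 targets, 1 was called in OIR, beside 12.7% of all genes. It was the stress-induced factor Ddit3, which fell by 0.28 on the log2 scale (adjusted p = 0.357). The median of the list was -0.22. After Ceapin-A7 3 were called lower, Atf3 (-1.31 ± 0.44 SE, adjusted p = 0.472), Sesn2 (-0.33 ± 0.14, adjusted p = 0.474) and Trib3 (-0.57 ± 0.25, adjusted p = 0.477), beside 5.32% of all genes. All 12 were negative there, with a median of -0.35. Without PBS replicates 4 and 5, 1 of these PERK and ATF4 targets was lower and 1 higher, and 0 of the ATF6 targets were called. Of all 15378 genes then tested, 770 were called in either direction.

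Some of the genes share bases with a neighbour in the GRCm38 annotation. Herpud1 shares 535 bases with the antisense gene Gm15890, Derl2 231 with Mis12 on the opposite strand, and Syvn1 91 with Mrpl49 on the opposite strand and 59 with Mir6988 on its own. Libraries were stranded, but the strand setting of the counting is not given in the sources used here, so reads from these bases may not be told apart. Derl3, Edem3, Sel1l and Derl1, the genes called in OIR or after Ceapin-A7 with all libraries, share none. Derl2, called in the difference of the contrasts, is among those that share bases.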

How the data were processed

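Whole retinas gave 20 stranded mRNA libraries in 4 groups of 5, grouped by the genotype and treatment in the labels, each a retina sample of its own. Per the labels and methods, the authors aligned reads to GRCm39 with HISAT2 (2.0.4), estimated expression with RSEM (1.2.18), used DESeq2 (1.4.5) for differential expression and deposited FPKM per gene to 2 decimals, 1 table per group. All deposited columns were used. No counts were analysed here, so no interval from counts is given. Steps between low FPKM values gave a relative depth of 1.0, except 0.933 in Atf6-/- replicate 4 and 0.701 in Ceapin-A7 replicate 3, from 4 to 23 genes a library. Replicates of a group had correlations of 0.960 to 0.993 and were never duplicates.

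Each experiment was fitted on its own 10 libraries, and the difference of contrasts on all 20. Libraries were scaled by the median of ratios to the geometric mean (factors 0.946 to 1.04), and genes whose mean exceeded 0.1 FPKM were compared as log2(FPKM + 0.1) with limma (3.58.1, eBayes with trend) in R (4.3.3). Fold changes are on that scale, which understates changes of low genes. A gene was called at an unadjusted p of 0.05 or less, and Benjamini-Hochberg values are over all genes tested. Exact permutation tests over libraries were two-sided. Where nothing says that libraries are separate animals, p-values measure the spread between samples. The study's count model was not run, as the values are FPKM. The fits were tested on simulated data.

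The ERAD genes, the lists and the settings were chosen with earlier results of these data known. Named genes are the 10 ERAD genes, the 3 genes most correlated with each, and up to 5 called genes per context list and contrast by smallest p. Atf3, Hspa5, Mzb1, Jchain, Prdm1, Cd79a and genes of the overlaps were named after their values were seen. Alternatives were other pseudocounts, filters, scalings and limma settings, a fit of all libraries, the replicate block, and leaving out each library. The GC correction (lowess, span 0.3, with transcript GC of GRCm38 by symbol for 97.0% of genes in OIR and 97.1% after Ceapin-A7) and leaving out both PBS replicates 4 and 5 were chosen after seeing the data. Promoter windows are from RefSeq on GRCm38.p6, which is not the build of the FPKM tables, and were searched with Python (3.11.15). Protein comparisons were not run.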

Additional observations from a re-analysis of the deposited data

Results flagged for a closer look

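In 3 of 40 groups of 5 libraries, 1 library lay farther from its nearest neighbour than Dixon's 95% critical value of 0.71 allows, and chance gives about 1 in 20. Derl1 was 21.1 FPKM in Atf6+/+ OIR replicate 4, with the next library at 18.5 FPKM. Derl3 was 1.48 FPKM in PBS replicate 5, with the next at 0.92 FPKM, and Edem3 was 14.3 FPKM in PBS replicate 3, with the next at 15.9 FPKM.

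The effect of the genotype in OIR and that of the drug differed, at an unadjusted p of 0.05 or less in the test of the difference itself, for 3 genes. In that test 9.2% of all 15628 genes were called, 5.4% with a higher value in the OIR contrast. The difference was 0.27 for Edem3 (limma, adjusted p = 0.394), 0.18 for Derl1 (adjusted p = 0.447) and 0.22 for Derl2 (adjusted p = 0.519). For Derl1 and Derl2 the fold change was positive in OIR and negative after Ceapin-A7, and for Edem3 it was positive in OIR and near 0 after Ceapin-A7. None passed the adjustment over all genes. The difference of Derl2 was 0.20 as deposited and 0.16 after the GC correction, and then missed the unadjusted threshold too.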

How the results depend on the processing

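Derl3 and Edem3 in OIR kept their direction and stayed called in all 22 alternatives, and so did the difference between contrasts for Edem3 and Derl1 in all 32. The calls of Derl1 and Sel1l after Ceapin-A7 held in 15 of 23 alternatives each. Depth is known only in relative terms, and the 2 decimals of FPKM limit Derl3 most. In the filter of a mean FPKM above 1, Derl3 was not tested after Ceapin-A7. The cause of the changes below was not tested.

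With array weights, 2772 genes had an adjusted p under 0.05 in OIR and 5750 an unadjusted p of 0.05 or less, and 4 ERAD genes were called at the adjusted level, with 2 higher and 3 lower at the unadjusted. The difference of contrasts then had 744 and 3800 genes, 3 ERAD genes at the adjusted level and 2 lower. Among the lists, other ERAD genes were 17 higher and 12 lower in OIR, ATF6 targets 2 and 4, PERK and ATF4 targets 1 and 5, and after Ceapin-A7 0 other ERAD genes were higher. Herpud1 in OIR was -0.0011, Edem3 after Ceapin-A7 0.0097 and the difference of Edem2 0.0132.

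As deposited, 0 ERAD genes were lower after Ceapin-A7 and 1 in the difference. The lists then had 5 other ERAD genes higher, 3 ATF6 targets lower and 2 PERK and ATF4 targets lower in OIR, and 1 PERK and ATF4 target lower after Ceapin-A7. With the same sum (TPM), other ERAD genes were 5 higher and ATF6 targets 5 lower in OIR, Herpud1 was -9.5e-05, and after Ceapin-A7 the median of the ERAD genes was -0.13, with 0 other ERAD genes higher, 2 lower and 2 ATF6 targets lower. These scalings moved the share of calls that were higher in OIR from 54.3% to 30.5% as deposited and 31.0% with the same sum, after Ceapin-A7 from 48.6% to 26.8% with the same sum, and in the difference from 58.7% to 39.8% as deposited. With quantile normalization, 5 ATF6 targets and 2 PERK and ATF4 targets were lower in OIR, 2 other ERAD genes and 2 ATF6 targets were lower after Ceapin-A7, Edem3 was 4.5e-04 there, and 1 ERAD gene was lower in the difference. With a mean FPKM above 1, 2 ATF6 targets were lower in OIR. No filter left 1 PERK and ATF4 target lower after Ceapin-A7. Limma without trend also left 1, with 0 other ERAD genes higher. A pseudocount of 1 gave 1 ERAD gene lower in the difference. The fit of all 20 libraries gave 11 genes at the adjusted level and 2 ERAD genes higher in OIR, and 1 gene at that level and 0 ERAD genes lower after Ceapin-A7.

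The GC correction left 4 other ERAD genes higher and 3 ATF6 targets lower in OIR, and 2 other ERAD genes lower after Ceapin-A7. The differences of Syvn1 and Edem1 became 0.0238 and -0.0118. Without both PBS replicates 4 and 5, 770 genes were called after Ceapin-A7, the median of the ERAD genes was -0.0596, 0 other ERAD genes were higher, 0 ATF6 targets lower and 1 PERK and ATF4 target called in each direction. Herpud1 was 0.0553, Edem3 0.0127 and Os9 -0.0067. In the difference 1 ERAD gene was lower, Derl3, and Herpud1 was -0.0291, Edem1 -0.0037 and Edem2 0.0295.

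Libraries of the same replicate number were not steadily alike. Correlations of same-numbered libraries ran from -0.392 to 0.313 in OIR and from -0.375 to 0.454 in the drug experiment, and not every library correlated best with its own number. The GC trend of the libraries also enters these correlations, so they cannot exclude a pairing of samples. With the replicate block, 0 ERAD genes were lower after Ceapin-A7, and in the difference 3 genes had an adjusted p under 0.05 and 1 ERAD gene, Os9, was lower.

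Leaving out 1 library at a time, genes called in OIR ran from 1091 (without Atf6-/- replicate 4) to 4014 (without Atf6-/- replicate 5), with 1302 without Atf6+/+ replicate 1 and 3763 without Atf6+/+ replicate 4, and genes at the adjusted level from 5 to 9. ERAD genes there ran from 1 to 3 higher, 1 to 3 lower and 0 to 1 at the adjusted level. After Ceapin-A7, genes called ran from 953 (without PBS replicate 4) to 2532 (without PBS replicate 2). ERAD genes lower ran from 0 to 3, with 0 without PBS replicate 5 or Ceapin-A7 replicate 2 and 1 without Ceapin-A7 replicate 1, 4 or 5. In the difference, genes called ran from 1007 to 2614, those at the adjusted level from 3 to 12, and ERAD genes lower from 0 to 2. Among the near-zero values that changed sign, Herpud1 in OIR ran from -0.0049 to 0.0602, Edem3 after Ceapin-A7 from -0.0343 to 0.0080, Edem2 after Ceapin-A7 from -0.0611 to 2.8e-04, and the differences of Edem2 and Syvn1 from -0.0876 to 0.0057 and from -0.147 to 0.0173. Lists other than the 10 ERAD genes were not rerun without single libraries, in the fit of all libraries or with the block.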
